A study of Mus musculus with 4 samples.

Results

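The genes of MHC class II antigen presentation were followed in ribosome footprints and RNA of mouse leukaemia stem cells. Members were chosen by name: the invariant chain (Cd74), the classical class II chains (H2-Aa, H2-Ab1, H2-Eb1), the peptide-loading chaperone (H2-DMa, H2-DMb1) and the class II transactivator (Ciita). Of these 7 genes, 6 were matched among the 16442 genes of the table, and Ciita is not analysed here. Leukaemia stem cells, the cells that propagate a leukaemia, came from bone marrow of C57BL/6 mice with leukaemia, in 2 WT libraries and 2 libraries whose titles say KO, for Rreb1, a zinc finger transcription factor. KO replicate 2 carries Rreb2-KO as its genotype entry and was placed in the group by its title. The sources used here do not give age, the driver of the leukaemia, the deleted part of Rreb1 or the animals behind each library. The p-values therefore measure the spread between these libraries, which may be technical. Footprints are the stretches of mRNA that ribosomes protect from nuclease digestion, here fragments of 25 to 40 nucleotides.

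MHC class II molecules are pairs of an alpha and a beta chain that carry peptides from the endosomal pathway to the cell surface, where CD4+ T cells read them. The invariant chain fills the groove of new class II molecules and guides them to endosomes. There cathepsins degrade it, and the H2-DM heterodimer exchanges its last fragment for a peptide. Dendritic cells, B cells and macrophages express these genes most, and Ciita switches them on through factors bound to paired promoter boxes called X and Y. On leukaemia blasts class II is the route by which CD4+ T cells can recognise them.

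The promoters of 3 members, H2-DMb1, H2-Aa and H2-Eb1, hold both boxes, and they are shown because Ciita acts through these boxes, with H2-DMa as an example that lacks the pair. The sequences are from RefSeq (GRCm38.p6), 5′ to 3′ on the strand of the gene, with a match to TNGNAAC (an X box core) and to ATTGG (the Y box) in capitals. H2-DMb1 lies at chr17:34153070-34153154 on the plus strand, H2-Aa at chr17:34287847-34287931 on the minus strand and H2-Eb1 at chr17:34305749-34305832 on the plus strand. The H2-DMa stretch, chr17:34122732-34122831 on the plus strand, is the 100 bases before the first of its listed start sites.
H2-DMb1: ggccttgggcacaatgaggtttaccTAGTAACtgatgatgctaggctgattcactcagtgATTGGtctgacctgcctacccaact
H2-Aa: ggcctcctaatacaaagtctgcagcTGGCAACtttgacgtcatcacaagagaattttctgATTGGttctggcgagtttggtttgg
H2-Eb1: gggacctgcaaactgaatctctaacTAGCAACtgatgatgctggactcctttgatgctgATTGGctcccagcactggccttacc
H2-DMa: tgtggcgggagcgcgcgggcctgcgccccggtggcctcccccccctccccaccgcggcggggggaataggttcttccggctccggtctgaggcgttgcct
The starts of the boxes lay 35 bases apart in H2-DMb1 and H2-Aa and 34 in H2-Eb1. The letters searched were written after these sequences had been read. Over 32851 promoter windows of 300 bases, 35.2% held TNGNAAC and 37.4% held ATTGG on either strand. Both on 1 strand in this order, with starts 15 to 40 bases apart, occurred in 1.07%. A match describes letters and not a bound site. Windows with and without the pair occurred among genes with higher RNA: of 8 class II genes with a promoter in the table, H2-Aa and H2-Ob with a pair, and H2-DMa, H2-Oa, H2-DMb2 and H2-Eb2 without one, were higher in both KO-labelled libraries, and H2-DMb1 with a pair was lower.

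Footprint reads assigned to genes numbered 878068 and 656249 for the WT libraries, against 364087 and 274183 for the KO-labelled ones, in replicate order. Input RNA depths lay within 1.12-fold of each other. Levels are RPKM, reads scaled to gene length and to the library's assigned total, and differences are on the log2(RPKM + 1) scale, on which changes of low genes come out too small. Rreb1 footprints were 14.1 and 12.8 RPKM in WT and 12.9 and 8.19 RPKM in KO, and its RNA was 3.33 and 3.25 against 6.10 and 6.93 RPKM, so its level does not settle the labels. The libraries are therefore called KO-labelled, and directions are those of the labels. Of 9 tested stem and progenitor markers, RNA of 5 rose, 0 fell and 4 did not pass, against 33.1% of tested genes that rose. Kit was 7.15 to 7.36 RPKM in KO-labelled against 1.97 to 2.32 RPKM, and Cd34 was 49.8 to 50.5 against 4.41 to 4.71 RPKM.

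RNA of Cd74 and H2-DMa rose in the KO-labelled libraries, by 0.75 ± 0.17 and 0.98 ± 0.08 on the log2 scale (SE, 2 libraries a group, adjusted p from limma 0.00694 and 5.52e-05). RNA of H2-DMb1, the partner of H2-DMa, fell by 0.21 ± 0.08 (SE, limma adjusted p = 0.046). Footprints did not show either rise: of the 3 tested members 0 passed limma in footprints, 1 at an unadjusted p under 0.05, with log2 differences between -0.61 and -1.36. These 3 members passed the filter on low genes, at least 20 CPM (footprint reads scaled to a common library total) in at least 2 libraries. Over all tested genes, log2 footprint levels of the 2 replicates correlated with r = 0.940 in WT and only 0.782 in KO-labelled. In RNA these values were 0.997 and 0.996, so footprints were the less repeatable readout, most of all in the KO-labelled pair. In translational efficiency 0 of the 3 passed, with 2 at an unadjusted p under 0.05. Of all 6388 tested genes, 60.8% passed limma at an adjusted p under 0.05 in RNA (33.1% rose and 27.7% fell), so 3 of 3 members is not set apart from the tested genes by its count. In footprints 1.06% passed (0.595% higher, 0.47% lower) and 18.2% reached the unadjusted threshold. In translational efficiency 0.0% passed, and 831 genes (13%) reached it.

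**Figure D1:**
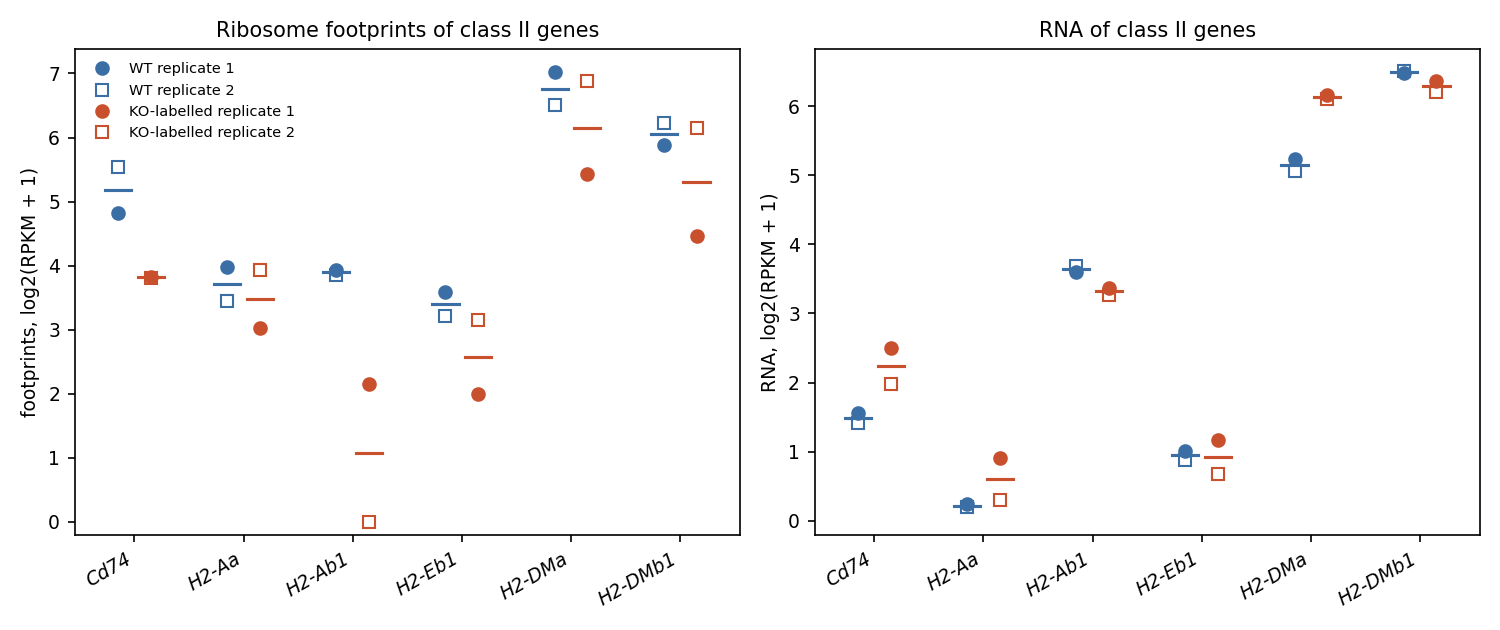
Levels of the 6 members in each library as log2(RPKM + 1), footprints on the left and RNA on the right, with points for libraries and bars for group means. RNA replicates lie close together except for Cd74, H2-Aa and H2-Eb1 in the KO-labelled group, whereas the KO-labelled footprints of H2-DMa and H2-DMb1 are split, with replicate 1 low.

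Cd74, the invariant chain, had footprints of 27.2 and 45.5 RPKM in WT replicates 1 and 2, and of 13.1 RPKM in both KO-labelled libraries, from 20, 25, 4 and 3 reads. Both KO-labelled libraries were lower than both WT libraries, as were those of 19.5% of all genes in the table. The log2 difference was -1.36 ± 0.39 (SE, limma adjusted p = 0.192, unadjusted p = 0.0193). Pooled over libraries, the KO over WT ratio of reads per assigned read was 0.374 (exact 95% interval 0.142 to 0.835, counting error only). The gene passed the filter through the WT libraries, at 22.8 and 38.1 CPM against 11.0 and 10.9 CPM.

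Its RNA was 1.96 and 1.67 RPKM in WT and 4.69 and 2.94 RPKM in KO-labelled replicates 1 and 2, from 63, 51, 145 and 84 input reads. The KO-labelled libraries were thus higher in RNA and lower in footprints, and replicate 1 had the highest RNA. RNA was 3.81 ± 1.24 against 1.82 ± 0.205 RPKM (SD, n = 2 each), and the pooled ratio of input reads was 2.11 (exact 95% interval 1.68 to 2.67, counting error only). The log2 difference of 0.75 was 0.48 without KO replicate 1 and 1.02 without KO replicate 2. Without the filter on low genes the RNA difference did not pass (limma adjusted p = 0.0761).

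Translational efficiency (TE), the deposited ratio of the footprint value to the RNA value with 1 added to both, was 9.52 and 17.4 for Cd74 in WT. In KO-labelled replicates 1 and 2 it was 2.48 and 3.57. The groups did not overlap. For 34.4% of all genes both KO-labelled libraries were lower too. The log2 difference was -2.11 ± 0.44 (SE, limma adjusted p = 0.289, unadjusted p = 0.00524), and without KO replicate 2 it was -2.37 (limma adjusted p = 0.0468). In that fit the KO-labelled group is 1 library, taken to vary like the WT pair, and 699 genes passed in TE in place of 0. A gene that reached the filter through WT alone is also more likely to be lower in KO-labelled footprints and TE. By TE the gene ranked above 97.7% of the table in WT and above 77.7% in the KO-labelled libraries.

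Among the tested genes, those with the smallest distance to Cd74 over its 8 centred log2 levels (4 libraries in footprints and RNA) were Snrpd2, H2ac15, Cdkn3, Snu13 and Lsm8. Their distances were 0.457 to 0.565, against a median of 1.83 over all tested genes. As they were picked as the nearest, distances below that median follow from the choice. Snrpd2, a core protein of the spliceosome, had footprints of 86.9 and 142 RPKM in WT against 46.6 and 51.5 RPKM, and RNA of 32.3 and 29.0 against 54.1 and 55.1 RPKM. No other class II gene was among these 5, but of the others only H2-DMa and H2-DMb1 were tested, so this says little.

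H2-DMa and H2-DMb1 form the H2-DM chaperone, and they had the highest levels of the members in both readouts. RNA of H2-DMa was 36.8 and 32.4 RPKM in WT and 70.8 and 67.6 RPKM in the KO-labelled libraries, from 2427, 2026, 4494 and 3973 input reads. RNA of H2-DMb1 was 88.3 and 89.9 RPKM in WT and 81.7 and 72.4 RPKM in KO-labelled. Neither gene's groups overlapped in RNA, one pair being higher and the other lower. The H2-DMa over H2-DMb1 ratio of RNA levels, taken within each library, was 0.388 ± 0.0404 in WT and 0.900 ± 0.0480 in KO-labelled (SD, n = 2 each), so the 2 chains moved from unequal to nearly equal RNA.

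The fall of H2-DMb1 RNA was small, 77.1 ± 6.57 against 89.1 ± 1.15 RPKM (SD, n = 2 each). It did not pass without WT replicate 1, WT replicate 2 or KO replicate 2 (limma adjusted p = 0.172, 0.233 and 0.0822). With the replicate number as a block it did not pass either (limma adjusted p = 0.0892). The rise of H2-DMa RNA passed under each alternative run. H2-DMb1 and H2-DMb2 are near copies, and the sources used here do not say how reads were divided between them.

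Footprints of the pair were split between the KO-labelled libraries. H2-DMa had 129 and 89.5 RPKM in WT and 42.1 and 116 RPKM in KO-labelled replicates 1 and 2, from 89, 46, 12 and 25 reads. H2-DMb1 had 58.2 and 74.0 RPKM in WT and 21.0 and 69.9 RPKM in KO-labelled, from 40, 38, 6 and 15 reads. In both genes KO replicate 1 was low, while KO replicate 2 lay between the WT libraries. The log2 differences of -0.61 ± 0.57 and -0.75 ± 0.63 (SE, limma adjusted p = 0.612 and 0.571) rest on that library: 0.11 and 0.09 remained when KO replicate 1 was left out, and -1.33 and -1.59 when KO replicate 2 was left out (limma adjusted p = 0.0643 and 0.0399). The last fit again takes its spread from the WT pair alone, and 1097 of 6388 genes passed there in place of 68. The H2-DMa over H2-DMb1 ratio of footprints was 1.72 ± 0.717 in WT and 1.83 ± 0.236 in KO-labelled (SD, n = 2 each), a difference within the spread and unlike that in RNA.

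TE of H2-DMa was 3.45 and 2.71 in WT and 0.601 and 1.71 in KO-labelled, with no overlap, and the difference on the log2 scale was -1.59 ± 0.58 (SE, limma adjusted p = 0.368). Without KO replicate 1 it was -0.84 and without KO replicate 2 -2.35 (limma adjusted p = 0.207 and 0.0277, each with 1 KO-labelled library). TE of H2-DMb1, the lowest of the members in WT, was 0.663 and 0.824 in WT and 0.267 and 0.965 in KO-labelled. Its log2 difference was -0.54 ± 0.70 (SE, limma adjusted p = 0.762), and 0.39 without KO replicate 1.

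**Figure D2:**
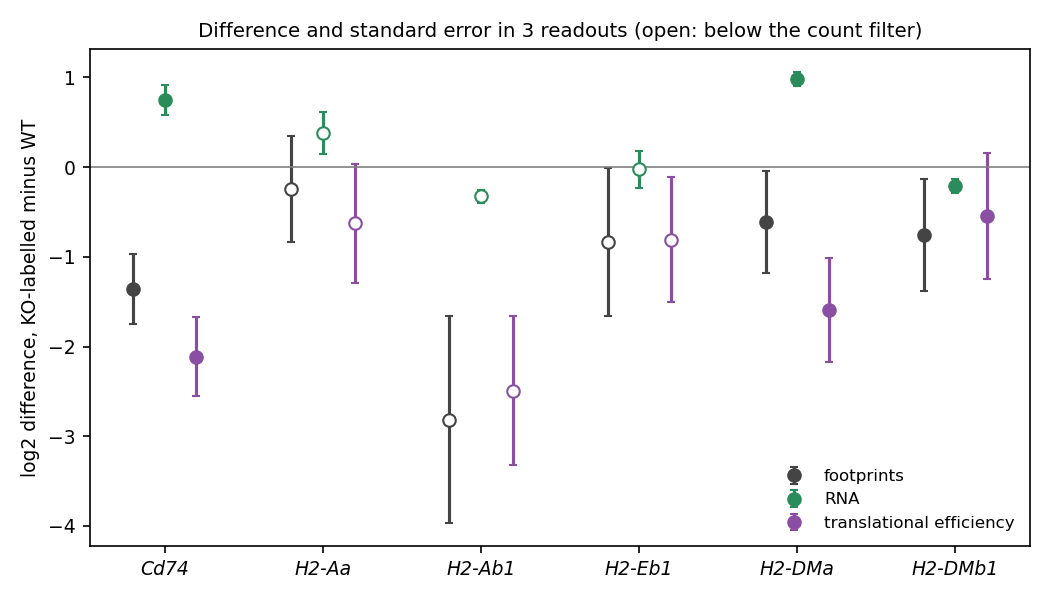
Log2 differences, KO-labelled minus WT, with standard errors, for each member in footprints, RNA and TE. Filled points are members that passed the filter on low genes. Open points come from the fit without that filter. RNA differences of Cd74 and H2-DMa lie above 0 at 0.75 and 0.98. All 6 TE differences lie below 0, with none past the adjusted threshold. The median TE difference was below 0 too, at -0.152 over tested genes and -0.188 over all genes.

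The classical chains H2-Aa, H2-Ab1 and H2-Eb1 did not reach the filter, and their footprints rest on 17 to 20 reads per gene over all 4 libraries. Their tests come from the fit of all 16442 genes, in which 38.2% passed in RNA and 0.0% in footprints. H2-Ab1, the beta chain of I-A, had 14.3 and 13.4 footprint RPKM in WT, and 3.46 and 0.0 RPKM in KO-labelled replicates 1 and 2, from 10, 7, 1 and 0 reads. Both KO-labelled libraries were lower. Pooled, WT exceeded KO-labelled 7.07-fold (exact 95% interval 1.11 to 296, counting error only), and the log2 difference of -2.82 ± 1.15 had a limma adjusted p of 0.623. RNA of H2-Ab1 fell by 0.33 ± 0.07 on the log2 scale (SE, limma adjusted p = 0.0374), from 11.1 and 11.9 to 9.34 and 8.64 RPKM. Fitted among the 12194 genes that reached 1 RPKM of RNA in at least 2 libraries, of which 53.3% passed, its limma adjusted p was 0.0222. TE of H2-Ab1 was 1.26 and 1.12 against 0.431 and 0.104, without overlap (limma adjusted p = 0.321).

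H2-Aa, the alpha partner of H2-Ab1, was far lower in RNA. It had 0.179 and 0.145 RPKM in WT and 0.872 and 0.232 RPKM in KO-labelled replicates 1 and 2, from 13, 10, 61 and 15 input reads. KO replicate 1 stood apart from the other 3 libraries, and the log2 difference was 0.39 ± 0.23 (SE, limma adjusted p = 0.275). Its footprints were 14.8 and 9.92 against 7.15 and 14.2 RPKM, from 10, 5, 2 and 3 reads, and overlapped. RNA of H2-Ab1 therefore exceeded that of its partner 62.2-fold and 82.1-fold in the WT libraries and 10.7-fold and 37.3-fold in the KO-labelled libraries. Per kilobase, the WT footprints of the 2 chains overlapped, with H2-Ab1 over H2-Aa ratios of 0.966 and 1.35.

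H2-Eb1, the beta chain of I-E, had RNA of 1.02 and 0.850 RPKM in WT and 1.26 and 0.604 RPKM in KO-labelled, with the WT values between those of the KO-labelled libraries (limma adjusted p = 0.951). Its footprints were 11.1 and 8.25 RPKM in WT and 2.97 and 7.89 RPKM in KO-labelled, from 9, 5, 1 and 2 reads. The KO-labelled libraries were lower, KO replicate 2 by little, and the pooled WT over KO ratio of 1.94 had an exact 95% interval of 0.542 to 10.5 (counting error only).

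In order, mean RNA of the members in WT was 89.1 RPKM for H2-DMb1, 34.6 for H2-DMa, 11.5 for H2-Ab1, 1.82 for Cd74, 0.936 for H2-Eb1 and 0.162 for H2-Aa, and no neighbours overlapped. The KO-labelled order was the same, but there H2-DMa (67.6 to 70.8 RPKM) lay just under H2-DMb1 (72.4 to 81.7 RPKM), and H2-Eb1 and H2-Aa overlapped. Footprints in WT ran in another order: 109.5 RPKM for H2-DMa, 66.1 for H2-DMb1, 36.4 for Cd74, 13.9 for H2-Ab1, 12.4 for H2-Aa and 9.67 for H2-Eb1. Of these neighbours H2-Ab1 and H2-Aa overlapped, and so did H2-Aa and H2-Eb1. Over the 6 members, both KO-labelled libraries were above both WT libraries for 3 in RNA and 0 in footprints, and below them for 2 in RNA and 3 in footprints. Over all genes these shares were 44.3% and 12.2% above, and 28.2% and 19.5% below. In TE 0 members were above and 3 below, against 14.1% and 34.4% of all genes.

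In bulk samples such as these, fewer cells of a type and less RNA per cell cannot be told apart. The authors' deposited table gives p-values for TE of 0.0178 for H2-Ab1, 0.0509 for H2-DMa, 0.0599 for Cd74 and 0.223 to 0.378 for the other 3. Its header calls these adjusted, yet unadjusted one-sided tests on TE with equal variances gave the same values for 16250 of the 16442 genes. These are the genes counted as matching, to within 4.5e-08, and the rest differed or had no defined test.

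The remaining class II chains and chaperones of the table rose in RNA, each of 4, in the fit of all genes, where 23.1% of genes rose. H2-Oa and H2-Ob form H2-DO, which inhibits H2-DM. RNA of H2-Oa rose from 1.04 and 0.861 to 7.64 and 7.09 RPKM, higher by 2.101 ± 0.098 on the log2 scale (SE, limma adjusted p = 0.00312). RNA of H2-Ob rose from 0.418 and 0.338 to 1.76 and 1.84 RPKM, by 1.02 ± 0.08 (SE, limma adjusted p = 0.00583). H2-DMb2, the second beta chain of H2-DM, rose from 3.74 and 4.51 to 6.90 and 6.35 RPKM (limma adjusted p = 0.0304). H2-Eb2, a further beta chain gene, had 0, 1, 36 and 29 input reads in WT replicates 1 and 2 and KO replicates 1 and 2 (limma adjusted p = 0.00754). Pooled, its RNA was 68.3-fold higher (exact 95% interval 11.8 to 2740, counting error only).

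In footprints 0 of these 4 passed limma, with 3 at an unadjusted p under 0.05, against 10.2% of all genes. Of these H2-Oa and H2-Eb2 were higher and H2-DMb2 lower. H2-Oa had 9.11 and 10.2 RPKM in WT and 22.0 and 19.4 RPKM in KO-labelled, higher in both, from 6, 5, 6 and 4 reads. Its pooled KO over WT ratio of 2.19 had an exact 95% interval of 0.832 to 5.67 (counting error only), too wide to show a rise. H2-Eb2 had 0 and 1 read in WT against 6 and 4, with an exact 95% interval of the pooled ratio from 3.42 to 1040. H2-Eb1 and H2-Eb2 are also alike in sequence, so reads between them are uncertain. H2-DMb2 had 1 and 2 reads in WT and 0 in both KO-labelled libraries, too few to show a difference at this depth, whatever its unadjusted p. TE was lower in both KO-labelled libraries for H2-Oa, H2-Ob and H2-DMb2 and higher for H2-Eb2, with 0 past limma's adjusted threshold. With 0 KO-labelled footprint reads, TE of H2-DMb2 in those libraries follows from its RNA alone.

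**Figure D3:**
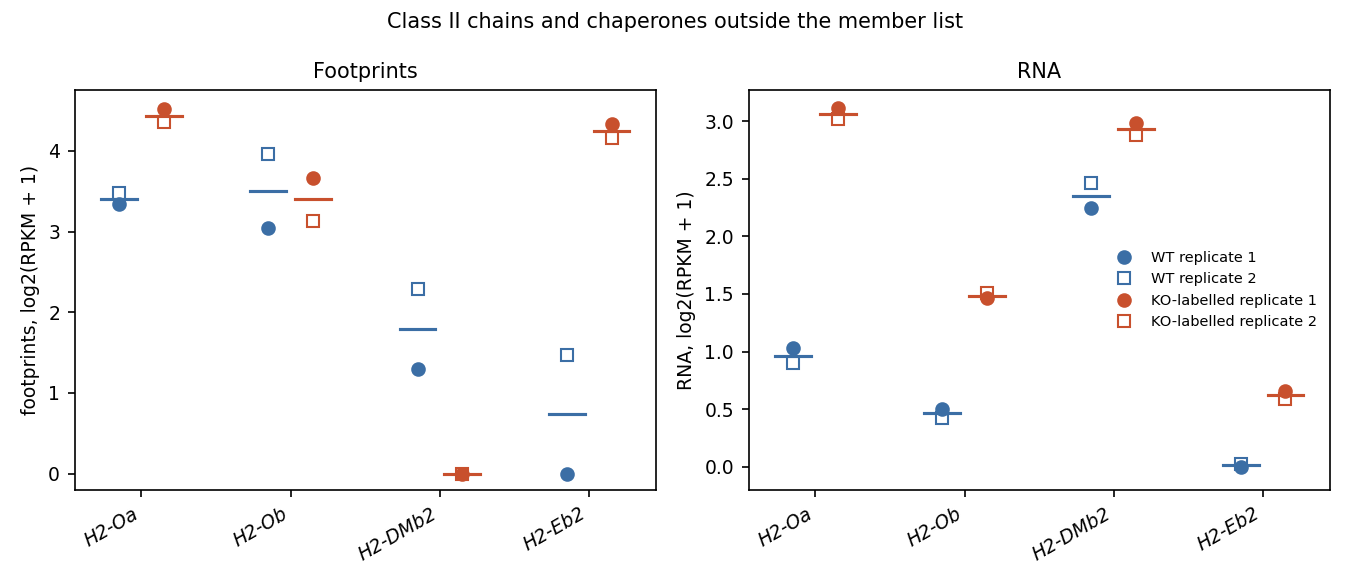
Levels of H2-Oa, H2-Ob, H2-DMb2 and H2-Eb2 in each library as log2(RPKM + 1), footprints on the left and RNA on the right. In RNA both KO-labelled libraries lie above both WT libraries for each gene, whereas the footprints of H2-Ob overlap and those of H2-DMb2 are at 0.0 in both KO-labelled libraries.

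Genes that act on class II molecules after synthesis were mostly lower in RNA. Of 15 tested genes of loading and peptide supply, 10 fell, 2 rose and 3 missed the threshold. The median log2 difference was -0.40, against 0.04 over all tested genes. Over all tested genes, 27.7% fell and 33.1% rose. Ctss, the cathepsin that trims the invariant chain, fell from 254 and 260 to 121 and 117 RPKM of RNA, 2.16-fold lower (limma adjusted p = 9.65e-06). Marchf1, a ubiquitin ligase that removes class II from the surface, fell from 8.37 and 8.92 to 2.46 and 3.85 RPKM. Lgmn (an asparagine endopeptidase), Ctsb (a cathepsin) and Lamp2 (a lysosomal membrane protein) fell by 1.03, 1.08 and 0.92 on the log2 scale. The 2 that rose, named after their values were seen, were Cst3, a cathepsin inhibitor, by 0.89, and Ctsz, a cathepsin, by 0.29. Summed RNA of the 18 listed genes did not fall, at 2520 and 2543 RPKM in WT and 2550 and 2496 RPKM in KO-labelled. Cst3, a large part of that sum, went from 487 and 469 to 856 and 911 RPKM. In the fit of all genes, where 15.2% fell and 23.1% rose, RNA of 10 of 18 listed genes fell and of 2 rose. Ifi30, not tested above because its footprints were 0.0 RPKM, rose there from 34.8 and 36.0 to 73.2 and 96.0 RPKM (limma adjusted p = 0.0129). Ctsz did not pass there (limma adjusted p = 0.0979).

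In footprints 0 of the 15 passed. An unadjusted p under 0.05 was reached by 8, each lower, and by 18.2% of tested genes in either direction. Their median was -0.90, against -0.13 over all tested genes. Ctss had 972 and 1078 footprint RPKM in WT against 357 and 471, a change of -1.32 ± 0.28 on the log2 scale (SE, limma adjusted p = 0.131).

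Of 9 tested regulators of class II transcription, RNA of 2 rose, of 1 fell and of 6 did not pass, against 60.8% of all tested genes that passed. The median was 0.15. Irf8, a transcription factor of monocytes and dendritic cells, fell from 37.3 and 37.5 to 16.3 and 15.3 RPKM, by 1.20 ± 0.07 (SE, limma adjusted p = 9.54e-06). Irf1, which activates Ciita in response to interferon gamma, rose from 8.68 and 7.62 to 15.2 and 14.5 RPKM, by 0.80 ± 0.09 (SE, limma adjusted p = 0.000227). Nfyb, a subunit of the factor that binds the Y box, rose by 0.19, and Rfxank, of the complex that binds the X box, did not pass (limma adjusted p = 0.711). For footprints of these 9, limma called 0, and 1 had an unadjusted p under 0.05.

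Interferon gamma induces class II. Of 7 tested genes of its signalling, RNA of the induced GTPases Irgm1, Gbp3 and Igtp rose, by 1.30, 0.72 and 0.61 on the log2 scale. RNA of Jak1, a kinase of the receptor, and of Ifngr1, the receptor itself, fell by 0.54 and 0.19. These 3 higher and 2 lower of 7 are near the 33.1% and 27.7% of all tested genes. In the fit of all genes, where 23.1% rose and 15.2% fell, RNA of 5 of 10 listed genes rose and of 2 fell. Socs1 and Gbp2 also rose there (limma adjusted p = 0.00334 and 0.0231), and Ifngr2 fell in place of Ifngr1. Footprints of the 7 had a median of -0.01, with 0 past limma's threshold and 0 at an unadjusted p under 0.05. Of the costimulatory genes 2 were tested, and Cd86, which engages CD28 on T cells, fell in RNA from 1.36 and 1.44 to 0.326 and 0.417 RPKM (limma adjusted p = 0.000345), while Icosl did not pass. Cd86 reached the filter through the WT libraries, at 20.5 and 22.9 CPM against 2.75 and 0.0 CPM. In the fit of all genes 1 of 8 costimulatory genes fell and 0 rose in RNA.

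**Figure D4:**
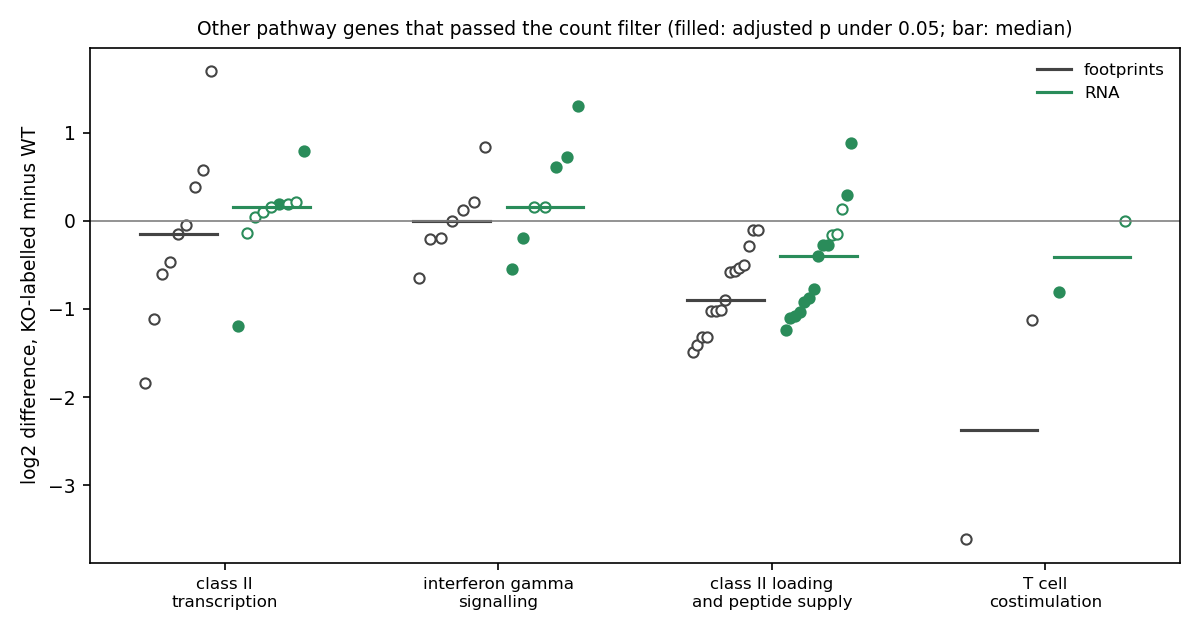
Log2 differences, KO-labelled minus WT, of the tested genes in 4 lists, footprints and RNA side by side, with bars at the medians and filled points for an adjusted p under 0.05. RNA of the loading genes lies mostly below 0, with a median of -0.40, and no footprint point is filled.

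Markers of the cells that express class II most differed between the groups, and their part in these differences was not tested. In the fit of all genes, where 23.1% rose and 15.2% fell, RNA of 6 of 10 dendritic cell markers rose and of 1 fell. Their summed RNA was 36.7 to 37.8 RPKM in WT and 133 to 136 RPKM in KO-labelled. Bst2 made up 63.6% to 63.8% of it in WT and 51.7% to 53.2% in KO-labelled. Without Bst2 the sum was 13.3 to 13.7 RPKM against 63.7 to 64.1 RPKM. Tcf4 rose from 0.554 and 0.561 to 26.9 and 28.7 RPKM and Itgax from 0.468 and 0.654 to 5.01 and 4.88 RPKM, while Clec10a fell. Batf3, a factor of cross-presenting dendritic cells, rose from 0.0655 and 0.172 to 0.782 and 0.625 RPKM (limma adjusted p = 0.0181). Xcr1, a defining marker of those cells, was at 0.0923 to 0.210 RPKM over the 4 libraries, with no footprints. Flt3, Tcf4 and Runx2 are also expressed by progenitors.

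Of 7 B cell markers, RNA of 3 rose and of 2 fell in that fit. Cd79a, Vpreb1 and Igll1, of the B cell receptor and its precursor form, rose from low levels: Cd79a from 1.76 and 1.44 to 3.09 and 3.71 RPKM, Vpreb1 from 0.305 and 0.322 to 1.72 and 1.37 RPKM, and Igll1 to at most 0.527 RPKM. Cd79b fell from 41.3 and 39.1 to 25.2 and 22.7 RPKM, and Bank1 fell too. The sum was 147 to 155 RPKM in WT and 137 to 151 RPKM in KO-labelled, of which 69.5% to 78.5% was Cd37, a gene that many leukocytes express.

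Of 12 macrophage markers, RNA of 5 rose and of 4 fell in the fit of all genes, against 23.1% and 15.2% of all genes. Adgre1, Csf1r, Vcam1 and Cd163 fell, and C1qa, C1qb, C1qc, Mrc1 and Spic rose. The sum was 422 to 426 RPKM in WT and 294 to 310.5 RPKM in KO-labelled. Cd68 made up 65.3% to 66.2% of it in WT and 77.0% to 78.6% in KO-labelled. Without Cd68 the sum was 142 to 148 RPKM against 66.5 to 67.7 RPKM. Of 8 monocyte markers 6 fell and 1, Ly6c2, rose, from 232 and 210.5 to 645 and 705 RPKM. Of those that fell, Cd14 went from 87.4 and 91.5 to 4.14 and 3.32 RPKM. The monocyte sum was 6292 to 6302 RPKM in WT and 1710 to 1728 RPKM in KO-labelled, but without Lyz2, its leading gene, it was 776 to 777 RPKM against 809 to 891 RPKM.

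Of 10 T and NK cell markers, RNA of 4 (Nkg7, Lck, Trac and Cd3g) rose and of 0 fell in the fit of all genes. Over all genes, 23.1% rose and 15.2% fell there. Lck rose from 0.821 and 0.808 to 4.17 RPKM in both KO-labelled libraries, and Trac from 1.01 and 1.24 to 2.73 and 3.14 RPKM. The sum was 18.8 to 19.1 RPKM in WT and 369 to 437 RPKM in KO-labelled, of which 96.3% to 97.5% was Nkg7 in the latter. Without Nkg7 it was 3.78 to 4.41 RPKM against 11.0 to 13.6 RPKM. Footprints did not follow for all 4: Nkg7 was higher in both KO-labelled libraries, while Lck and Cd3g overlapped. Trac was lower, at 16.7 and 14.9 RPKM in WT against 6.70 and 0.0 RPKM, from 6, 4, 1 and 0 reads. In the fit of all genes 0 of the 10 passed in footprints.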

How the data were processed

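Footprints of 2 WT and 2 KO-labelled libraries were analysed. The submitters' processing notes name HISAT2 2.1.0, CASAVA, DESeq2 and featureCounts without their roles, and the human build hg38 although the samples are from mice. No annotation is named in the sources used here. The authors deposited footprint RPKM with 1 added, a unit read from the values. Their deposited TE is a ratio of footprint to RNA value, and the table holds a deposited p-value per gene. RNA was taken as footprint value over TE, minus 1.

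Whole reads were recovered from RPKM steps for 10536 genes, within 0.002 reads, and both recovery and the limma fit were tested on simulated data. In the simulation some genes lost a factor shared by all their read numbers: RPKM is not affected, but CPM can be too low and intervals too wide. Input reads of the named members were recovered likewise, within 0.01 reads. Groups were compared with limma 3.58.1 in R 4.3.3 (mean-variance trend, log2 of value + 1, group as the only term, two-sided, Benjamini-Hochberg over all tested genes, threshold 0.05). The filter was 20 CPM in at least 2 libraries. An exact test of 2 against 2 libraries cannot go below p = 0.333. Python 3.11.15 was used for tables and plots.

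Members, lists and tests were chosen with earlier results of these data known. The rule was to name all members, list genes called in footprints, the 5 largest RNA calls per list, and the 5 genes nearest Cd74. Some marker genes under it are counted above without being named. Genes named beyond this rule are background to a count or were named after their values were seen. Alternatives were other filters, pseudocounts, scalings, a count-based fit, leaving out each library, and blocks. Replicate numbers come from the titles and were not taken to pair the libraries.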

Additional observations from a re-analysis of the deposited data

How the results depend on the processing

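Footprint counts limit most values: 7 KO-labelled reads for Cd74 and 1 to 5 for the classical chains cannot show moderate changes. In footprints 0 members passed, and 1 (H2-DMb1) without KO replicate 2, so the range over left-out libraries was 0 to 1. In TE 0 passed, with a range of 0 to 2, reached without KO replicate 2 (Cd74 and H2-DMa). In RNA 3 passed, with 2 to 3 under the alternatives, but these were not always the same members. Without the low-gene filter they were H2-DMa and H2-Ab1. Fitted among genes with at least 1 RPKM of RNA in 2 libraries, they were Cd74, H2-DMa and H2-Ab1. Directions turned without KO replicate 1 for H2-DMa footprints, H2-DMb1 footprints and H2-DMb1 TE, and in no other alternative run for the 3 tested members. Over left-out libraries the log2 differences ran from -1.33 to 0.11, from -1.59 to 0.09 and from -1.47 to 0.39. RNA of Cd74 missed the threshold without the low-gene filter, and its limma adjusted p lay between 3.4e-07 (crossed replicate block) and 0.0761 over the alternatives. RNA of H2-DMb1 missed it under 7 alternatives, including no trend (limma adjusted p = 0.0691) and no filter (limma adjusted p = 0.107). The cause was not tested. TMM scaling moved the footprint median of all tested genes from -0.13 to 0.01, and Cd74 then had -1.22. Deviations of same-numbered libraries from their group means correlated with r = 0.0226 in footprints and -0.335 in RNA, over genes, which are not independent replicates. With the replicate number as a block, 32 genes in place of 68 passed in footprints, with 0 members, and 2 members passed in RNA. The crossed replicate block, chosen after seeing the data, called 134 genes in footprints, 4395 in place of 3883 in RNA and 2 in TE.
The filter moved the number of genes called in footprints from 68 to 0 with no filter (1674 at an unadjusted p under 0.05), 120 at 50 CPM and 18 on the mean CPM. A pseudocount of 5 gave 110. Leaving out a library gave 0 without either WT library, 334 without KO replicate 1 and 1097 without KO replicate 2, and in TE 149 and 699 without the latter 2. In RNA 6286 passed with no filter and 6497 with the RNA filter, also chosen after seeing the data.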
